A study of Homo sapiens with 60 samples.

Results

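A water extract of Cinnamomi Cortex, the dried bark of the cinnamon tree, was given for 24 h to HT29 cells, an established human line of colorectal adenocarcinoma, and the transcriptome at 500 µg/mL was compared with that at 20 µg/mL. Each dose had 3 libraries, so 6 of the 60 libraries of the series entered the comparison, and all 16357 genes with enough counts were tested of the 60675 in the table. The other groups used here, with 3 libraries each, were Cinnamomi Cortex at 100 µg/mL, the water extracts of Astragali Radix and of Cnidii Rhizoma at 500 and 20 µg/mL, and the vehicle dimethyl sulfoxide, which the sample labels give at 0.1% and the design text at 2%. All were HT29 cells after 24 h, and no genetic change was made in any group. The design text states that an extract more toxic than the top dose allows was used at its 20% inhibitory concentration and dilutions of it, while the labels give the nominal doses used here. Whether the 3 libraries of a dose came from separate cultures is not stated in the labels. The p-values therefore set differences only against the spread of libraries within groups, and that spread may be technical. It was estimated over 57 libraries of the series, not over the 6 compared alone.

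Cinnamon bark is known for cinnamaldehyde, a reactive aldehyde, and for tannins. Reactive aldehydes are a textbook trigger of the transcription factor NRF2, which KEAP1 normally holds for degradation and which, once released, binds the antioxidant response element of genes for glutathione synthesis, NADPH supply and the reduction of quinones and carbonyls. Other sensors of cell chemistry also act on transcription. SREBP2 raises cholesterol synthesis when membranes lack sterol, MTF1 raises metallothioneins when free zinc is plentiful, and retinoic acid receptors raise genes such as RARRES1 and DHRS3. Which of these gene groups differed between the doses is described here, and the cause of any difference was not tested.

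Totals were 23057649, 34257504 and 21904439 counts at 500 µg/mL, against 27692100, 26922343 and 22034839 at 20 µg/mL. Of the labelled cell type, 13 of 13 markers of the HT29 epithelium exceeded 1 CPM (counts scaled to library size, with TMM factors) in at least 1 of the 6 libraries, with a summed level of 12530 to 14210 CPM at 500 µg/mL, against 11830 to 13050 at 20 µg/mL. By the same limit, of 10 fibroblast markers 1 exceeded 1 CPM (COL1A1), of 7 endothelial markers 1 (PECAM1), of 10 hepatocyte markers 1 (SERPINA1), and of 11 leukocyte markers 4 (CD14, CD68, ITGAM and LYZ). Of these, LYZ stood at 1245 to 1503 CPM and SERPINA1 at 347.3 to 473.3 CPM over the 6 libraries, while the others stayed below 10 CPM. The defining genes CD3E, CD3D, CD2, MS4A1, CDH5, KDR, EMCN, ALB, APOA2 and FGB were at 0 in all 6 libraries. The libraries did not group by dose alone. On the first principal component, which held 15.7% of the variance over 57 libraries, those at 500 µg/mL lay at -21.21, -16.00 and 14.40 and those at 20 µg/mL at -10.29, 3.52 and 8.11. Replicate number 2 thus lay on opposite sides at the 2 doses. Counts without it at both doses are given for some of the lists whose counts moved with it, and other lists moved as well.

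Genes were called at an adjusted p under 0.05 (edgeR's quasi-likelihood test on 57 libraries, Benjamini-Hochberg adjustment over all genes tested). At 500 against 20 µg/mL 1671 genes were called, which is 10.2% of those tested, while 23.6% had an unadjusted p under 0.05. Of these, 754 rose (4.61%) and 917 fell (5.61%). Each count in a gene list below is to be read against these shares. Most changes were small. The median log2 fold change was 0.23 among risen genes and -0.35 among fallen genes, and 652 of the risen (86.5%) and 662 of the fallen (72.2%) changed by less than 0.5 on the log2 scale. Only 79 genes (0.483%) changed at least 2-fold, 20 higher and 59 lower, and 7 and 10 of them reached a mean log2 CPM of 1. The libraries at 500 µg/mL lay wholly above those at 20 µg/mL for 679 of the risen genes and wholly below for 832 of the fallen, while over all genes tested the doses did not overlap for 22.4%, 10.8% above and 11.6% below. In all 3 pairs of equal replicate number, 751 risen and 908 fallen genes kept their direction, which the lack of overlap fixes for 679 and 832 of them. The total was 998 without replicate number 2 at both doses and 974 without replicate 3 at 20 µg/mL.

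The noncoding RNAs that were called had mostly fallen, but the share that fell was below that of protein-coding genes, and few rose. Of 12889 protein-coding genes 734 rose (5.69%) and 733 fell (5.69%). Long intergenic RNAs had 8 risen and 36 fallen of 714 (1.12% and 5.04%), antisense RNAs 3 and 43 of 1071 (0.28% and 4.01%), and processed pseudogenes 1 and 11 of 468 (0.214% and 2.35%). No test was made of these differences in share.

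**Figure D1:**
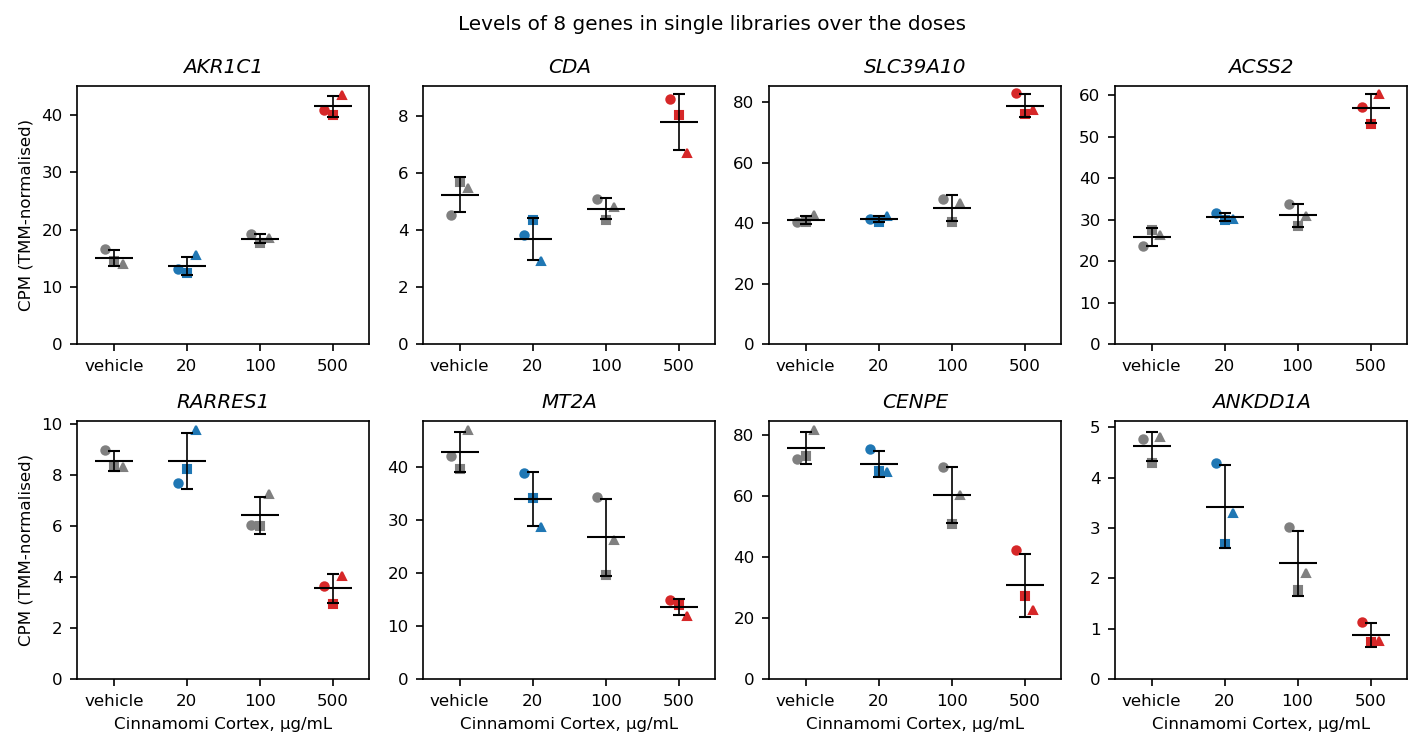
Levels in CPM (vertical axes) of 8 genes at 0 (vehicle), 20, 100 and 500 µg/mL Cinnamomi Cortex, with replicates 1, 2 and 3 as circle, square and triangle, the bar at the mean and whiskers of 1 SD (n = 3). The libraries at 500 µg/mL (red) lie above all those at 20 µg/mL (blue) for AKR1C1, CDA, SLC39A10 and ACSS2 and below all of them for RARRES1, MT2A, CENPE and ANKDD1A, while the mean at 100 µg/mL lies nearer to that at 20 than to that at 500 µg/mL for each gene.

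Both marker genes given for higher expression at 500 µg/mL and the marker given for lower expression passed the test. AKR1C1 (chr10:4963253-4983283, GRCh38, plus strand), an aldo-keto reductase that reduces carbonyls and progesterone, had 40.9, 40.0 and 43.5 CPM at 500 µg/mL, against 13.1, 12.5 and 15.5 at 20 µg/mL. Its log2 fold change was 1.60 (SE 0.09, adjusted p = 1.3e-17). CDA (chr1:20588948-20618908), cytidine deaminase, which converts cytidine and its drug analogues to uridine forms, had 8.60, 8.02 and 6.68 CPM at 500 µg/mL, against 3.82, 4.34 and 2.90 at 20 µg/mL, a change of 1.07 (SE 0.16, adjusted p = 2.4e-06). RARRES1 (chr3:158696892-158732696), a gene induced by retinoic acid in several epithelia, had 3.66, 2.96 and 4.07 CPM at 500 µg/mL, against 7.68, 8.23 and 9.79 at 20 µg/mL, a change of -1.28 (SE 0.14, adjusted p = 2.5e-09). For all 3 genes the doses did not overlap.

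The targets of NRF2 formed the list with the highest share of risen genes. Of 30 tested members 28 rose and 0 fell, against 4.61% and 5.61% of all genes, and their median log2 fold change was 0.50, where the median of all genes was -0.00. The remaining members were ABCC3, a conjugate exporter, at -0.02 and the pseudogene NMRAL2P at 0.99 with an adjusted p of 0.063. The summed level of the list was 16420 to 17380 CPM at 500 µg/mL, against 10850 to 11960 at 20 µg/mL.

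Within the list AKR1C1 and AKR1C2 had the largest changes. AKR1C2, an aldo-keto reductase close in sequence to AKR1C1, had 36.4, 33.4 and 36.9 CPM at 500 µg/mL, against 11.98, 12.2 and 10.6 at 20 µg/mL (log2 fold change 1.61, SE 0.09, adjusted p = 7.4e-18). AKR1B10, which reduces aldehydes and retinaldehyde in gut epithelium, had 190.4, 176 and 185 CPM at 500 µg/mL, against 91.2, 89.3 and 88.9 at 20 µg/mL (log2 fold change 1.03, SE 0.06, adjusted p = 8.7e-19). AKR1C3, which also reduces prostaglandin and steroid ketones, had 64.7, 69.7 and 85.4 CPM at 500 µg/mL, against 40.9, 42.7 and 39.0 at 20 µg/mL (log2 fold change 0.84, SE 0.12, adjusted p = 6.8e-07). For each of them all libraries at 500 µg/mL lay above all those at 20 µg/mL. Estimated counts divide shared reads among near-identical genes, so the AKR1C members are uncertain relative to each other. ABCC2, an apical exporter of glutathione and glucuronide conjugates, had 3.52, 3.69 and 3.18 CPM at 500 µg/mL, against 1.51, 1.43 and 1.41 at 20 µg/mL (log2 fold change 1.26, SE 0.22, adjusted p = 3.5e-05). NQO1, a quinone reductase, had the smaller change of 0.44 (SE 0.05, adjusted p = 1e-08), with 593, 609 and 651 CPM at 500 µg/mL, against 461, 461 and 445 at 20 µg/mL.

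Genes of glutathione and thioredoxin supply rose with them. GCLM, the modifier subunit of the enzyme that limits glutathione synthesis, had 92.5, 88.0 and 89.0 CPM at 500 µg/mL, against 67.2, 56.0 and 60.5 at 20 µg/mL (log2 fold change 0.55, SE 0.08, adjusted p = 1.9e-06). SLC7A11, which imports the cystine needed for it, had 184, 183 and 191 CPM at 500 µg/mL, against 147, 121 and 134 at 20 µg/mL (log2 fold change 0.47, SE 0.07, adjusted p = 6.5e-06). The doses did not overlap for either gene. TXNRD1, thioredoxin reductase, had 398, 369 and 462 CPM at 500 µg/mL, against 322, 315 and 328 at 20 µg/mL, and its change of 0.35 (SE 0.09, adjusted p = 0.0043) was no longer called without replicate 3 at 500 µg/mL. Heme and iron genes of the list also rose. HMOX1, heme oxygenase, had 19.0, 19.0 and 20.9 CPM at 500 µg/mL, against 12.5, 11.2 and 10.2 at 20 µg/mL (log2 fold change 0.79, SE 0.08, adjusted p = 3.9e-10), the light ferritin subunit FTL a change of 0.66 (SE 0.08, adjusted p = 1.2e-07) and the heavy subunit FTH1 one of 0.60 (SE 0.07, adjusted p = 5.2e-09). For FTL this was 3834 ± 73.5 CPM at 500 µg/mL against 2424 ± 279 at 20 µg/mL, and for FTH1 6919 ± 623 CPM at 500 µg/mL against 4568 ± 294 at 20 µg/mL (SD, n = 3 each). These ferritin and heme genes were 3 of the 4 risen members among 17 genes of iron uptake and storage. The fourth was FECH, which inserts iron into heme, at 0.28 (SE 0.07, adjusted p = 0.0028).

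The upstream 250 bases of GCLM and TXNRD1 are shown because both genes rose and their windows hold the core of the antioxidant response element. They are RefSeq sequences on GRCh38.p14, 5′ to 3′ on the gene's strand and ending at the base before the annotated start, at chr1:93909431-93909680 (minus strand) for GCLM and chr12:104215529-104215778 (plus strand) for TXNRD1, and capitals mark the motif.
GCLM: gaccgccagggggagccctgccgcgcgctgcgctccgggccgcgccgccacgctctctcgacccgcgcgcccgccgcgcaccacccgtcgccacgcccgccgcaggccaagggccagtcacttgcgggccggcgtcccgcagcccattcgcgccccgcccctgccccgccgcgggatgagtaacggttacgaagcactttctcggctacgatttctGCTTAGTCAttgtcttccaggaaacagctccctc
TXNRD1: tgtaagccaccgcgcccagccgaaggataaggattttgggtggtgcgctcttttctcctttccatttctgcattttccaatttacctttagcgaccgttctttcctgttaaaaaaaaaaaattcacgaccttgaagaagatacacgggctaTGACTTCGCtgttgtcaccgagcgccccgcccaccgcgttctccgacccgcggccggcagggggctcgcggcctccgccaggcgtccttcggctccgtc
The motif searched was TGACNNNGC on both strands. It occurred in the windows of 5 of 21 NRF2 targets with a RefSeq promoter (GCLM, TXNRD1, PGD, ME1 and CBR1) and in 11% of all 27305 promoters. A match is a description of these letters, and binding was not measured.

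**Figure D2:**
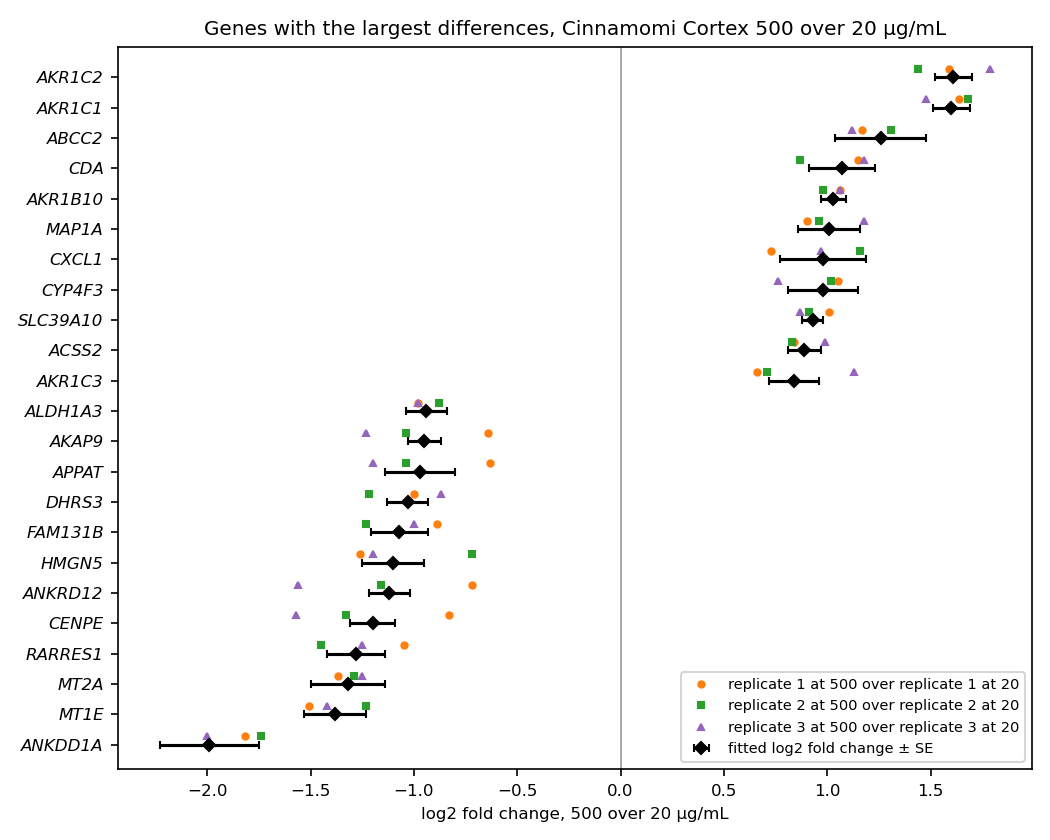
Log2 fold change at 500 against 20 µg/mL (horizontal axis) for the 11 risen and 12 fallen genes with the largest change among genes with a mean log2 CPM of at least 1 and doses that do not overlap, with whiskers of 1 SE, and the log2 ratio within each pair of equal replicate number as separate symbols. AKR1C2 at 1.61 and ANKDD1A at -1.99 mark the ends. Every pair ratio lies on the same side of 0 as its gene's fold change, which the choice of genes without overlap fixes.

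Among other genes of carbonyl and drug metabolism the picture was mixed. Of 20 tested genes of aldehyde and ketone metabolism 5 rose and 2 fell, with a median log2 fold change of 0.02, and 3 rose without replicate number 2. ALDH3A1, an aldehyde dehydrogenase of epithelia, had 41.9, 44.6 and 41.0 CPM at 500 µg/mL, against 25.9, 27.2 and 23.1 at 20 µg/mL (log2 fold change 0.74, SE 0.06, adjusted p = 5.4e-14). ADH1C, a class I alcohol dehydrogenase, went the other way, with 0.457, 0.336 and 0.607 CPM at 500 µg/mL, against 1.69, 2.06 and 1.84 at 20 µg/mL (log2 fold change -2.04, SE 0.28, adjusted p = 5e-07). Of 22 genes of conjugation and efflux 7 rose and 0 fell (3 risen without replicate number 2), with a median of 0.13. UGT1A6, a glucuronosyltransferase that shares exons with other UGT1A genes, had 71.0, 73.2 and 79.0 CPM at 500 µg/mL, against 49.4, 46.2 and 50.9 at 20 µg/mL (log2 fold change 0.61, SE 0.05, adjusted p = 7.2e-12), and MGST1, a membrane-bound glutathione transferase, 281, 267 and 199.7 CPM at 500 µg/mL, against 204, 169 and 159.6 at 20 µg/mL (log2 fold change 0.49, SE 0.12, adjusted p = 0.0037). At MGST1 the lowest library at 500 µg/mL lay below the highest at 20 µg/mL, and at ALDH3A1, ADH1C and UGT1A6 the doses did not overlap.

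The aryl hydrocarbon receptor list, which shares NQO1 with the NRF2 list, had 4 risen members (ALDH3A1, UGT1A6, NQO1 and SLC7A5) and 1 fallen of 10. The fallen member was CYP1B1, a cytochrome P450 and classical receptor target, with 37.7, 35.8 and 31.1 CPM at 500 µg/mL, against 49.0, 45.4 and 42.7 at 20 µg/mL (log2 fold change -0.39, SE 0.09, adjusted p = 0.0025). CYP1A1, the other classical target, was not called at -1.02 (SE 0.54, adjusted p = 0.25), with 0.183, 0.457 and 0.327 CPM at 500 µg/mL, against 0.515, 0.845 and 0.703 at 20 µg/mL. CYP4F3, which hydroxylates leukotriene B4 and fatty acids, was among the 12 risen genes with the largest change, with 3.29, 2.93 and 2.90 CPM at 500 µg/mL, against 1.54, 1.40 and 1.67 at 20 µg/mL (log2 fold change 0.98, SE 0.17, adjusted p = 3.6e-05).

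Most genes of cholesterol synthesis and uptake rose. Of 25 tested, 22 rose and 0 fell, with a median log2 fold change of 0.49, and all 25 had a positive fold change. The members that did not pass were PMVK at 0.04, SREBF2 at 0.10 and STARD4 at 0.35. MSMO1, a sterol methyl oxidase, had 146, 137 and 131 CPM at 500 µg/mL, against 99.9, 83.5 and 83.2 at 20 µg/mL (log2 fold change 0.64, SE 0.11, adjusted p = 6.4e-05), and IDI1, the isomerase of isopentenyl diphosphate, 236, 217 and 230.0 CPM at 500 µg/mL, against 168, 145 and 143 at 20 µg/mL (log2 fold change 0.58, SE 0.08, adjusted p = 1.6e-06). LSS, which closes the sterol rings, had 171, 174 and 204 CPM at 500 µg/mL, against 115, 131 and 126 at 20 µg/mL (log2 fold change 0.56, SE 0.06, adjusted p = 2.4e-09). INSIG1, the sterol-regulated brake on SREBP processing and itself an SREBP target, had 307, 279 and 262 CPM at 500 µg/mL, against 206, 186 and 177 at 20 µg/mL (log2 fold change 0.58, SE 0.10, adjusted p = 5e-05). At each of these genes the 3 libraries at 500 µg/mL lay above the 3 at 20 µg/mL. HMGCS1, the synthase ahead of the pathway's rate-limiting reductase, averaged 405 ± 27.9 CPM at 500 µg/mL against 288 ± 28.8 at 20 µg/mL (log2 fold change 0.49, SE 0.12, adjusted p = 0.004).

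Fatty acid genes moved less evenly. Of 14 genes of fatty acid synthesis 6 rose (ACSS2, SCD, ELOVL1, FASN, ACLY and ELOVL6) and 1 fell, SREBF1 at -0.14, with a median of 0.24. ACSS2, which makes acetyl-CoA from acetate in the cytosol and nucleus, had the largest change, with 57.1, 53.2 and 60.3 CPM at 500 µg/mL, against 31.7, 29.9 and 30.2 at 20 µg/mL (log2 fold change 0.89, SE 0.08, adjusted p = 7.8e-12). SCD, the stearoyl-CoA desaturase, had 2668, 2637 and 2854 CPM at 500 µg/mL, against 1990.0, 1927 and 2034 at 20 µg/mL (log2 fold change 0.46, SE 0.04, adjusted p = 6.2e-11). FASN, fatty acid synthase, had 1224, 1183 and 1523 CPM at 500 µg/mL, against 1026, 1101 and 1142 at 20 µg/mL without overlap, but its change of 0.27 (SE 0.07, adjusted p = 0.0083) was no longer called without replicate 3 at 500 µg/mL or replicate 1 at 20 µg/mL. Of 16 PPAR targets and genes of fatty acid oxidation 4 rose (ACSL1, CPT1A, ACSL3 and ACSL5) and 0 fell, with a median of 0.10 and 2 risen without replicate 2 at 20 µg/mL. Of 9 cholesterol efflux genes and LXR targets 1 rose and 1 fell. The fallen one was ABCA1, a cholesterol exporter, with 3.84, 4.03 and 2.52 CPM at 500 µg/mL, against 5.40, 5.11 and 5.40 at 20 µg/mL (log2 fold change -0.59, SE 0.12, adjusted p = 0.00044).

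Of the 5 tested metallothioneins, small cysteine-rich proteins that bind zinc and copper, 4 fell at 500 µg/mL. MT2A (chr16:56608199-56609497, GRCh38, plus strand) had 15.0, 13.9 and 11.96 CPM at 500 µg/mL, against 38.8, 34.2 and 28.7 at 20 µg/mL (log2 fold change -1.32, SE 0.18, adjusted p = 3.4e-07). MT1E had 31.6, 32.8 and 24.9 CPM at 500 µg/mL, against 90.4, 76.9 and 66.6 at 20 µg/mL (log2 fold change -1.38, SE 0.15, adjusted p = 1.1e-09), and MT1X 0.914, 0.640 and 0.607 CPM at 500 µg/mL, against 2.57, 2.72 and 2.68 at 20 µg/mL (log2 fold change -1.89, SE 0.24, adjusted p = 6.8e-08). None of the libraries at 500 µg/mL reached the lowest at 20 µg/mL for these genes. MT1F, at under 1 CPM in all 6 libraries, averaged 0.194 ± 0.0473 CPM at 500 µg/mL against 0.644 ± 0.143 at 20 µg/mL (log2 fold change -1.69, SE 0.46, adjusted p = 0.01), a call lost without replicate 1 at 20 µg/mL and with DESeq2. MT1G was not called at -0.59 (SE 0.42, adjusted p = 0.43). These genes are near-identical, so the split of reads between them is uncertain.

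Zinc transporters moved in both directions. SLC30A1, the zinc exporter of the plasma membrane and like the metallothioneins a target of the zinc sensor MTF1, had 28.7, 29.4 and 27.7 CPM at 500 µg/mL, against 37.2, 42.1 and 42.0 at 20 µg/mL (log2 fold change -0.50, SE 0.08, adjusted p = 5.8e-06). SLC39A10, a zinc importer, had 83.2, 76.0 and 77.4 CPM at 500 µg/mL, against 41.2, 40.4 and 42.3 at 20 µg/mL (log2 fold change 0.93, SE 0.05, adjusted p = 4.4e-19), the smallest adjusted p among the named genes. Over the whole list of 18 tested genes of metallothioneins and zinc transport 2 rose (SLC39A10 and SLC39A6) and 5 fell (MT1X, MT1F, MT1E, MT2A and SLC30A1), with a median of -0.02. Of 11 copper-handling genes 1 rose, the copper importer SLC31A1 at 0.16 (SE 0.05, adjusted p = 0.047), a call lost in 10 of the alternatives, among them each single library left out except replicate 2 at 500 µg/mL.

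The windows upstream of MT2A and MT1X are shown because these genes had some of the largest falls and the metal response element is dense there. They are RefSeq sequences on GRCh38.p14, both on the plus strand, at chr16:56608334-56608583 for MT2A and chr16:56682220-56682469 for MT1X. Each holds 250 bases up to the RefSeq start, and capitals mark TGCACNC or TGCGCNC on either strand. The MT2A window lies inside the gene span given above, which is that of GENCODE and begins earlier.
MT2A: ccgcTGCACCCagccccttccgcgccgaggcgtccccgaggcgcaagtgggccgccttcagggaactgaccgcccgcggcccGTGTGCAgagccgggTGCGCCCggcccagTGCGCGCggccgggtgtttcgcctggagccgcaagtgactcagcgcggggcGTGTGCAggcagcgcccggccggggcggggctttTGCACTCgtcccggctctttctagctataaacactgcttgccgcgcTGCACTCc
MT1X: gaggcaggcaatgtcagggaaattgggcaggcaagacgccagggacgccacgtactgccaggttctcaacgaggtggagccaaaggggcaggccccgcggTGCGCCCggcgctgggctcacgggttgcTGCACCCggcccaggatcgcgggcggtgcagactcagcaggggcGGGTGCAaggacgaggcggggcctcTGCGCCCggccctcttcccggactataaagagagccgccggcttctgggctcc
MT2A held 7 matches and MT1X held 4. All 3 metallothioneins with a RefSeq promoter held at least 1 match, and 6 of the 16 list members with a promoter did, against 24.7% of all promoters. At least 3 matches occurred in 1.56% of all promoters. The search says nothing on whether MTF1 was bound. Further elements were searched in the same way. The sterol regulatory element TCACNCCAC occurred in 1 of 18 cholesterol genes with a promoter (SREBF2, not called), against 0.875% of all promoters. The amino acid response element TGATGNAA occurred in 4 of 28 ATF4 targets with a promoter (ATF3, CHAC1, ASNS and AARS1), against 3.19% of all promoters.

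Retinoid genes moved in both directions. Of 20 tested genes of retinoid handling and retinoid targets 6 rose and 7 fell, with a median of -0.06. The fallen ones, RARRES1, DHRS3, ALDH1A3, STRA6, PLAAT4, TGM2 and NRIP1, numbered 7 under every alternative tried, while the risen ones (DHRS9, CDX1, ALDH1A1, RDH11, CRABP2 and RDH10) numbered 2 without replicate number 2 at both doses. DHRS3, which reduces retinaldehyde back to retinol and is induced by retinoic acid, had 11.8, 12.4 and 16.8 CPM at 500 µg/mL, against 23.7, 29.1 and 30.9 at 20 µg/mL (log2 fold change -1.03, SE 0.10, adjusted p = 6.2e-11). ALDH1A3, which makes retinoic acid from retinaldehyde, had 12.6, 14.2 and 13.0 CPM at 500 µg/mL, against 24.9, 26.4 and 25.9 at 20 µg/mL (log2 fold change -0.94, SE 0.10, adjusted p = 1.6e-09). The doses did not overlap for either gene. DHRS9, a dehydrogenase of the retinol pathway, had 1.37, 0.854 and 1.22 CPM at 500 µg/mL, against 0.588, 0.368 and 0.659 at 20 µg/mL (log2 fold change 1.07, SE 0.33, adjusted p = 0.026), and that call was lost without replicate 2 at 20 µg/mL and without replicates 1 or 3 at 500 µg/mL.

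Some genes of stress responses outside the NRF2 list rose by small amounts. Of 33 ATF4 targets of the amino acid response 10 rose and 1 fell, with a median of 0.18. TRIB3, a pseudokinase that feeds back on ATF4, had 55.8, 49.5 and 68.4 CPM at 500 µg/mL, against 35.7, 35.4 and 37.7 at 20 µg/mL (log2 fold change 0.67, SE 0.09, adjusted p = 1.4e-07), and ASNS, asparagine synthetase, 67.4, 68.2 and 67.8 CPM at 500 µg/mL, against 49.8, 53.1 and 52.0 at 20 µg/mL (log2 fold change 0.39, SE 0.05, adjusted p = 4e-08). Both lay higher in every library at 500 µg/mL. DDIT3, which encodes CHOP, stood at 5.30, 5.03 and 5.37 CPM at 500 µg/mL, against 5.37, 5.92 and 4.48 at 20 µg/mL (log2 fold change -0.02, SE 0.12, adjusted p = 0.96). CHAC1, which degrades glutathione, had 4.34, 4.54 and 5.23 CPM at 500 µg/mL, against 2.98, 4.19 and 2.77 at 20 µg/mL and a change of 0.50 (SE 0.15, adjusted p = 0.027) that was lost without replicates 1 or 3 at 20 µg/mL and without replicates 2 or 3 at 500 µg/mL. Of 17 heat shock genes 9 rose and 0 fell (median 0.18), and of 20 genes of endoplasmic reticulum chaperones and the unfolded protein response 13 rose and 0 fell (median 0.15). HSPA1A, an inducible cytosolic chaperone, averaged 356 ± 20.9 CPM at 500 µg/mL against 275 ± 12.4 at 20 µg/mL (log2 fold change 0.37, SE 0.06, adjusted p = 4.8e-05), and its near-identical neighbour HSPA1B cannot be separated from it with certainty. HSPA5, the endoplasmic reticulum chaperone BiP, averaged 471 ± 19.7 CPM at 500 µg/mL against 398 ± 11.6 at 20 µg/mL (log2 fold change 0.24, SE 0.05, adjusted p = 0.00026), and MANF, a secreted factor of the same response, 44.1 ± 0.983 CPM at 500 µg/mL against 35.2 ± 0.786 at 20 µg/mL (log2 fold change 0.33, SE 0.07, adjusted p = 0.00067).

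Among genes of protein turnover the shifts were also small. Of 31 proteasome subunits 9 rose, 0 fell and all 31 had a positive fold change, with a median of 0.15. PSMC4, an ATPase of the regulatory particle, had the largest of these, 0.22 (SE 0.04, adjusted p = 0.00031). Of 27 genes of autophagy and lysosomes 6 rose and 1 fell (median 0.13), among them SQSTM1, the autophagy receptor p62 and also an NRF2 target, with 488, 447 and 523 CPM at 500 µg/mL, against 381, 386 and 379.9 at 20 µg/mL (log2 fold change 0.35, SE 0.06, adjusted p = 9.9e-05), and MAP1LC3B at 0.30 (SE 0.05, adjusted p = 3.8e-05). The fallen gene was the cathepsin CTSB at -0.23. The counts of these stress lists rest on replicate 3 at 20 µg/mL and on the libraries that set the spread. The count of all risen genes does so too. From 754 it became 364 without that replicate and 533 without replicate 2 at 20 µg/mL. It was 438 without replicate number 2 at both doses and 161 in the 6 libraries alone. Without replicate 3 at 20 µg/mL 6 ATF4 targets, 5 heat shock genes and 3 proteasome subunits rose, and without replicate 2 at 20 µg/mL 8 genes of the unfolded protein response. Without replicate number 2 at both doses 6 genes of the unfolded protein response, 5 heat shock genes and 5 proteasome subunits rose, and in a fit to the 6 libraries alone 2, 3 and 0.

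Part of the genes of sugar metabolism rose. Of 28 genes of glycolysis and the hypoxia response 9 rose and 1 fell, the kinase PDK1 at -0.19, with a median of 0.11. ALDOC, an aldolase, had 30.4, 33.1 and 35.1 CPM at 500 µg/mL, against 21.03, 23.9 and 22.8 at 20 µg/mL (log2 fold change 0.54, SE 0.08, adjusted p = 1.2e-06), SLC2A1, the glucose transporter GLUT1, averaged 652 ± 49.1 CPM at 500 µg/mL against 536 ± 10.7 at 20 µg/mL (log2 fold change 0.28, SE 0.05, adjusted p = 2.7e-05), and LDHA, lactate dehydrogenase, 1106 ± 54.5 CPM at 500 µg/mL against 928 ± 26.8 at 20 µg/mL (log2 fold change 0.25, SE 0.04, adjusted p = 1.7e-05). Of 23 genes of nucleoside salvage and pyrimidine synthesis 2 rose and 0 fell (median 0.03), CDA and the nucleoside transporter SLC29A2 at 0.20 (SE 0.05, adjusted p = 0.0021). This was 8.7% called, against 10.2% of all genes tested. UPP1, uridine phosphorylase, the next step after deamination of cytidine, was not called at 0.18 (SE 0.11, adjusted p = 0.34), and neither was the thymidine phosphorylase gene TYMP at 0.14 (SE 0.29, adjusted p = 0.82). Of 17 selenoprotein genes 3 rose and 0 fell, the peroxidases GPX2 at 0.38 (SE 0.10, adjusted p = 0.0066) and GPX3 at 0.31 (SE 0.08, adjusted p = 0.0065) and the methionine sulfoxide reductase MSRB1 at 0.28 (SE 0.07, adjusted p = 0.0043). Without replicate 3 at 20 µg/mL 1 of these 3 was called, since GPX2 and GPX3 were lost, GPX3 was also lost without replicate 1 at 500 µg/mL and MSRB1 without replicate 3 at 500 µg/mL, and in the 6 libraries alone 0 were called.

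The list of mitosis genes had a median near 0, with more fallen than risen members. Of 42 genes of G2 and mitosis 1 rose (CCNA2) and 9 fell (CENPE, CENPF, KIF20B, ASPM, MKI67, SMC4, TOP2A, NDC80 and HMMR), with a median of 0.03. CENPE, a kinesin that carries chromosomes along the spindle, had 42.4, 27.1 and 22.8 CPM at 500 µg/mL, against 75.4, 68.2 and 67.7 at 20 µg/mL (log2 fold change -1.20, SE 0.11, adjusted p = 6.8e-11). CENPF, a kinetochore protein, had 204, 164 and 174 CPM at 500 µg/mL, against 285, 281 and 308 at 20 µg/mL (log2 fold change -0.69, SE 0.07, adjusted p = 5.5e-11), and MKI67, which coats mitotic chromosomes, 833, 693 and 688 CPM at 500 µg/mL, against 961, 926 and 989 at 20 µg/mL (log2 fold change -0.38, SE 0.08, adjusted p = 0.00081). Replicate 1 at 500 µg/mL was the highest of its dose for each, and still below every library at 20 µg/mL. Of 40 genes of S phase 2 rose and 2 fell (median -0.03). Without replicate number 2 at both doses 0 rose and 0 fell, and with 1 library left out 0 to 2 rose and 1 to 6 fell. The share called was 10% for S phase and 9.09% for targets of p53 and CDK inhibitors, near the 10.2% of all genes tested. CDKN1A, the cell cycle inhibitor p21, had 26.8, 23.1 and 27.7 CPM at 500 µg/mL, against 15.9, 17.3 and 12.9 at 20 µg/mL (log2 fold change 0.74, SE 0.08, adjusted p = 5.2e-09), and it was the 1 risen gene among 22 targets of p53 and CDK inhibitors, where 1 fell, SESN1 at -0.20 (SE 0.05, adjusted p = 0.0094), a call lost without replicate 3 at 20 µg/mL or replicate 2 at 500 µg/mL.

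A list of 25 genes that encode long cilium, centromere and coiled-coil proteins had 12 fallen and 0 risen members and a median of -0.30, while 5.61% of all genes fell. Like the other lists it was chosen with earlier results of these data known, so its count is a description. AKAP9, a scaffold of the Golgi and centrosome and among the 12 largest falls, had 104, 73.9 and 71.3 CPM at 500 µg/mL, against 162, 152 and 167 at 20 µg/mL (log2 fold change -0.95, SE 0.08, adjusted p = 7.3e-13). GOLGA4, a golgin that tethers vesicles, had 83.0, 58.0 and 58.3 CPM at 500 µg/mL, against 132, 116 and 127 at 20 µg/mL (log2 fold change -0.92, SE 0.08, adjusted p = 1.2e-11), and CEP290, of the ciliary transition zone, 10.2, 7.87 and 6.54 CPM at 500 µg/mL, against 14.7, 13.1 and 14.8 at 20 µg/mL (log2 fold change -0.79, SE 0.10, adjusted p = 9.5e-08). ANKRD12, an ankyrin repeat protein that binds nuclear receptor coactivators, was also among the 12 largest falls, with 34.4, 23.0 and 20.6 CPM at 500 µg/mL, against 56.6, 51.5 and 60.7 at 20 µg/mL (log2 fold change -1.12, SE 0.10, adjusted p = 2.1e-11). As with CENPE, replicate 1 at 500 µg/mL was the highest of its dose in each case. Of 27 splicing regulators 3 fell (NKTR, SRSF11 and LUC7L3) and 0 rose, with a median of -0.04. NKTR averaged 90.0 ± 6.31 CPM at 500 µg/mL against 119.6 ± 4.51 at 20 µg/mL (log2 fold change -0.41, SE 0.05, adjusted p = 1.8e-08).

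The share of genes that fell was larger where transcripts were longer. The 16243 tested genes with an annotated length (99.3%) were divided into 5 classes of near-equal size by the longest transcript of each gene. The share that fell was 1.69% in the class of 75 to 1686 bases, and 3.64%, 4.65%, 6.8% and 11.1% in the next classes, of which the last began at 5471 bases. The share that rose was 3.75%, 6.48%, 5.94%, 4.65% and 2.34% in the same order. The median log2 fold change of all genes moved much less across the classes, between 0.03 and -0.04. A similar slope of the median was seen in other comparisons. From the shortest to the longest class it went from 0.08 to -0.04 at 100 against 20 µg/mL. With Astragali Radix at 500 against 20 µg/mL it went from 0.03 to -0.02. Power to call a gene grows with its count, which was not held equal between the classes, and its part in these shares was not tested.

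**Figure D3:**
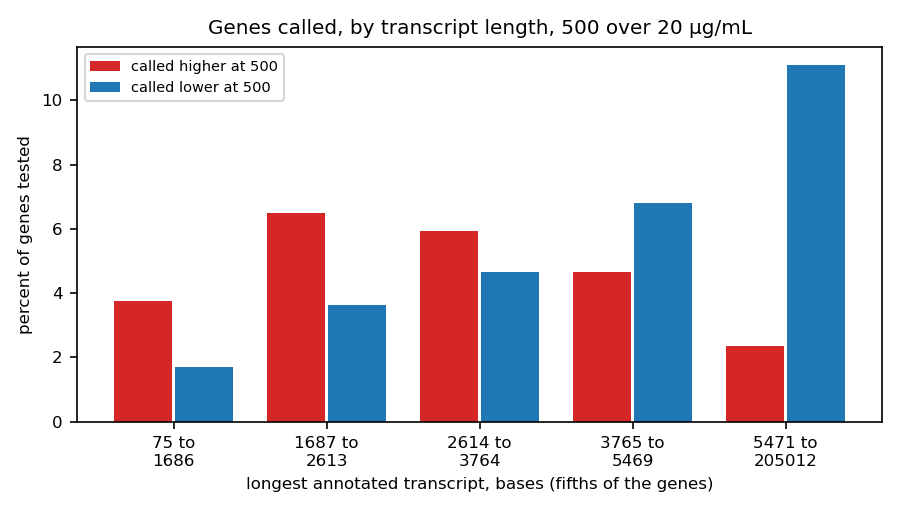
Percent of genes called higher and lower at 500 against 20 µg/mL (vertical axis) in 5 classes of the tested genes by the length of the longest annotated transcript (horizontal axis, short to long). The share called lower is 11.1% in the longest class and 1.69% in the shortest, while the share called higher peaks at 6.48% in the next shortest.

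A few epithelial genes rose. Of 19 genes of enterocyte differentiation 5 rose (CDX1, CEACAM5, KRT20, DPP4 and CEACAM6) and 0 fell, with a median of 0.07. KRT20, a keratin of differentiated intestinal epithelium, had 423, 385 and 396 CPM at 500 µg/mL, against 272, 265 and 268 at 20 µg/mL (log2 fold change 0.58, SE 0.07, adjusted p = 7.6e-08). CEACAM5, the carcinoembryonic antigen, had 12.9, 13.3 and 10.6 CPM at 500 µg/mL, against 8.31, 8.60 and 6.19 at 20 µg/mL (log2 fold change 0.67, SE 0.12, adjusted p = 7.8e-05), and DPP4, a brush border peptidase, 57.8, 54.1 and 51.8 CPM at 500 µg/mL, against 42.8, 41.6 and 44.8 at 20 µg/mL (log2 fold change 0.34, SE 0.05, adjusted p = 3.6e-06). The doses did not overlap at KRT20, CEACAM5 or DPP4. CDX1, an intestinal transcription factor, was near the threshold, with 0.777, 1.16 and 0.981 CPM at 500 µg/mL, against 0.588, 0.478 and 0.659 at 20 µg/mL, a change of 0.78 (SE 0.27, adjusted p = 0.049), and a call that was lost in 12 of the alternatives, each single replicate of 20 µg/mL among those left out. Of 20 WNT targets 2 rose (AXIN2 and MYC) and 1 fell, the stem cell receptor LGR5, with 31.3, 30.8 and 27.1 CPM at 500 µg/mL, against 42.1, 39.5 and 40.5 at 20 µg/mL (log2 fold change -0.45, SE 0.05, adjusted p = 1.5e-08). AXIN2, a feedback inhibitor of the pathway, averaged 88.8 ± 2.49 CPM at 500 µg/mL against 76.3 ± 1.40 at 20 µg/mL (log2 fold change 0.22, SE 0.05, adjusted p = 0.0013). Of 24 keratins and tight junction genes 2 rose and 2 fell, with the sealing claudin CLDN3 at 0.30 (SE 0.07, adjusted p = 0.0018) and the pore-forming claudin CLDN2 at -0.43 (SE 0.07, adjusted p = 3.5e-05). Of 23 mucin and goblet cell genes 1 rose and 1 fell, SPDEF at 0.19 (SE 0.06, adjusted p = 0.037) and AGR3 at -0.54 (SE 0.14, adjusted p = 0.0061). The share called was 8.7% for this list, 15% for WNT targets and 16.7% for keratins and tight junctions, against 10.2% of all genes tested. The call of SPDEF was lost in 10 of the alternatives, among them each single library left out except replicate 2 at 500 µg/mL, and that of AGR3 without replicate 1 at 500 µg/mL.

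Some chemokine genes rose and some interferon genes fell. Of 27 NF-kB inflammatory genes 5 rose (CCL20, CXCL1, CXCL8, PI3 and NFKBIA) and 2 fell (NFKBIZ and TNFAIP2), with a median of 0.26, and 2 rose without replicate number 2. CXCL8, the neutrophil chemokine interleukin 8, had 8.46, 8.48 and 8.13 CPM at 500 µg/mL, against 5.33, 4.78 and 5.18 at 20 µg/mL (log2 fold change 0.72, SE 0.11, adjusted p = 6.3e-06), and CXCL1, a chemokine of the same receptor family, 4.02, 4.39 and 3.46 CPM at 500 µg/mL, against 2.39, 1.91 and 1.71 at 20 µg/mL (log2 fold change 0.98, SE 0.21, adjusted p = 0.00077). Both chemokines lay higher in every library at 500 µg/mL. CCL20, a chemokine for CCR6-bearing cells, stood below 1 CPM in all 6 libraries, with 0.456 ± 0.130 CPM at 500 µg/mL against 0.152 ± 0.0921 at 20 µg/mL, and its change of 1.57 (SE 0.40, adjusted p = 0.0068) was lost without replicate 2 at 500 µg/mL and without replicate 3 at 20 µg/mL. The chemokines CXCL2, CXCL3, CXCL5, CXCL6 and CCL28 were not called. Of 39 interferon response genes 8 fell (IFITM1, OAS2, DDX60, IRF9, SAMD9, IFIT3, PARP14 and PARP9) and 0 rose, with a median of -0.17. DDX60, a helicase of antiviral signalling, had 2.97, 3.57 and 3.36 CPM at 500 µg/mL, against 4.49, 4.63 and 5.58 at 20 µg/mL (log2 fold change -0.55, SE 0.12, adjusted p = 0.00099), and IRF9, the DNA-binding subunit of the interferon-stimulated factor, 8.55, 7.68 and 6.92 CPM at 500 µg/mL, against 11.1, 10.5 and 9.27 at 20 µg/mL (log2 fold change -0.42, SE 0.11, adjusted p = 0.01). Without replicate 2 at 20 µg/mL 4 interferon genes fell, and without replicate number 2 at both doses 3. IRF9 was no longer called without replicate 1 at 20 µg/mL or replicate 3 at 500 µg/mL. Of 15 genes of antigen presentation by class I molecules 1 rose and 2 fell, the peptide-trimming enzymes ERAP1 at -0.22 (SE 0.06, adjusted p = 0.018) and ERAP2 at -0.26 (SE 0.05, adjusted p = 8e-05), of which ERAP1 was lost without replicate 2 at 20 µg/mL and without replicates 1 or 2 at 500 µg/mL.

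In the remaining lists few members were called. Against 10.2% of all genes tested, the share was 21.1% for immediate early genes, 13.6% for MAPK feedback and 12.5% for nuclear oxidative phosphorylation. It was 9.09% for FOXO and MondoA targets and 3.03% for ribosomal proteins. Immediate early genes had 4 risen (ATF3, NR4A1, JUNB and KLF10) and 0 fallen of 19, and 1 risen without replicate 3 at 20 µg/mL, as also without replicate number 2 at both doses. Of 22 genes of MAPK feedback and EGF ligands 2 rose and 1 fell, the feedback inhibitor SPRY1 at -0.38 (SE 0.08, adjusted p = 0.00058), and of 22 FOXO and MondoA targets 1 rose and 1 fell, MXI1 at 0.21 (SE 0.06, adjusted p = 0.015) and the arrestin TXNIP at -0.29 (SE 0.06, adjusted p = 0.00064). Of 32 nuclear genes of oxidative phosphorylation 4 rose, of 33 cytosolic ribosomal protein genes 1, and of 15 histone genes 0, and none of these fell. Without replicate number 2 at both doses the risen members numbered 0 for MAPK feedback, FOXO and MondoA targets and mucins, 1 for WNT targets, keratins and tight junctions, and zinc transport, and 2 for oxidative phosphorylation and the ribosomal proteins. The fallen ones numbered 0 for the ATF4, fatty acid synthesis, glycolysis and p53 lists, and 1 for the NF-kB, class I presentation, and keratin and tight junction lists. The 13 mitochondrially encoded mRNAs had 0 called members and a median of 0.25, while 9 were called higher with no filter on low counts and 6 with a replicate block in the 6 libraries. They took 10.1%, 10.27% and 7.05% of the counts at 500 µg/mL, against 10.27%, 7.58% and 6.53% at 20 µg/mL. Their share differed by more between replicates than between doses. In the marker lists of other cells 1 of 4 tested leukocyte markers fell, CD14 at -0.42 (SE 0.13, adjusted p = 0.034), and 1 of 3 tested endothelial markers, TEK at -1.55 (SE 0.33, adjusted p = 0.00073), with 0 called of 2 fibroblast and 3 hepatocyte markers. The call of CD14 was lost in 10 of the alternatives, among them DESeq2 and 3 single libraries left out, and that of TEK with DESeq2.

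The other genes of the 12 largest changes in either direction belong to none of these lists. MAP1A, a microtubule-associated protein of neurons, had 8.14, 6.89 and 6.92 CPM at 500 µg/mL, against 4.30, 3.49 and 2.99 at 20 µg/mL (log2 fold change 1.01, SE 0.15, adjusted p = 2.3e-06). HMGN5, a nucleosome-binding protein, had 3.20, 2.93 and 2.62 CPM at 500 µg/mL, against 7.79, 4.89 and 6.15 at 20 µg/mL (log2 fold change -1.10, SE 0.15, adjusted p = 5.4e-07). APPAT, a long intergenic RNA, had 2.56, 2.20 and 1.82 CPM at 500 µg/mL, against 4.01, 4.63 and 4.30 at 20 µg/mL (log2 fold change -0.97, SE 0.17, adjusted p = 4.2e-05), and FAM131B fell by 1.07 on the log2 scale (adjusted p = 1.6e-07). ANKDD1A, named for its ankyrin and death domains, had 1.14, 0.732 and 0.748 CPM at 500 µg/mL, against 4.30, 2.68 and 3.29 at 20 µg/mL (log2 fold change -1.99, SE 0.24, adjusted p = 1.9e-08), the largest change with a mean log2 CPM of at least 1. ANKDD1A spans chr15:64911902-64958700 on the plus strand (GRCh38), and an antisense RNA inside it, ENSG00000274383 at chr15:64950916-64951435 on the minus strand, fell by 4.05 on the log2 scale (SE 0.44, adjusted p = 1.6e-09). Its counts were 2, 4 and 2 at 500 µg/mL, against 38, 55 and 47 at 20 µg/mL. The strand setting of the counting is not given in the sources used here, so reads of the pair cannot be told apart, and the antisense RNA was named after its values were seen.

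The intermediate dose shows where between 20 and 500 µg/mL the changes lay. Between 500 and 100 µg/mL 963 genes were called (5.89%), 497 higher (3.04%) and 466 lower (2.85%), while between 100 and 20 µg/mL 1 gene was called (0.00611%), with 1428 genes (8.73%) at an unadjusted p under 0.05. The count of 1 became 6 with DESeq2, 31 without replicate 1 at 100 µg/mL, 85 with a replicate block and 259 with no filter on low counts. The gene was KDM3A, a histone demethylase, named after its values were seen, which fell by 0.25 on the log2 scale at 100 against 20 µg/mL (SE 0.04, adjusted p = 0.018) and was at -0.07 at 500 against 20 µg/mL (SE 0.04, adjusted p = 0.34). Of the 754 risen and 917 fallen genes the median change was 0.17 and -0.26 from 100 to 500 µg/mL, and 0.06 and -0.10 from 20 to 100 µg/mL. These genes were chosen on the sum of both steps, and the steps share the libraries at 100 µg/mL, so the medians are a description. All 24 genes named for the size of their change had a larger step from 100 to 500 than from 20 to 100 µg/mL, 24 of them were called in the upper step and 0 in the lower.

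AKR1C1 averaged 15.1 ± 1.38 CPM in the vehicle, 13.7 ± 1.61 at 20 µg/mL, 18.4 ± 0.750 at 100 µg/mL and 41.5 ± 1.78 at 500 µg/mL (SD, n = 3 each). MT2A ran the other way, with 42.9 ± 3.73 CPM in the vehicle, 33.9 ± 5.08 at 20 µg/mL, 26.7 ± 7.31 at 100 µg/mL and 13.6 ± 1.54 at 500 µg/mL. For SLC39A10 the levels were 41.1 ± 1.33 CPM in the vehicle, 41.3 ± 0.973 at 20 µg/mL, 45.0 ± 4.16 at 100 µg/mL and 78.9 ± 3.80 at 500 µg/mL. The levels of SLC39A10 at 20 µg/mL and in the vehicle lay less than 1 SD apart. CDA averaged 5.23 ± 0.609 CPM in the vehicle, 3.69 ± 0.729 at 20 µg/mL, 4.74 ± 0.366 at 100 µg/mL and 7.77 ± 0.982 at 500 µg/mL. Its change of -0.49 at 20 µg/mL against the vehicle was not called (SE 0.17, adjusted p = 0.11). ACSS2 had steps of 0.02 from 20 to 100 and 0.87 from 100 to 500 µg/mL on the log2 scale, and IDI1 of -0.00 and 0.58. AKR1C1 had 0.44 and 1.17, RARRES1 -0.41 and -0.88, and ADH1C -0.91 and -1.13. None of these lower steps was called. In the NRF2 list 24 of 30 members rose from 100 to 500 µg/mL and 0 were called from 20 to 100 µg/mL, and in the cholesterol list 22 of 25 and 0, against 3.04% of all genes higher in the upper step. At 20 µg/mL against the vehicle, 279 genes were called (1.71%), among them 0 of the 30 NRF2 targets and 0 of the 24 genes named for size. Some lists did have calls there. Of 10 aryl hydrocarbon receptor targets 3 were lower and 0 higher. Of 14 fatty acid synthesis genes 3 were higher, of 25 cholesterol genes 2, and 0 lower. The summed level of the NRF2 list was 10850 to 11960 CPM at 20 µg/mL, below the 12310 to 12660 of the vehicle, while the median log2 fold change of its members was 0.01.

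**Figure D4:**
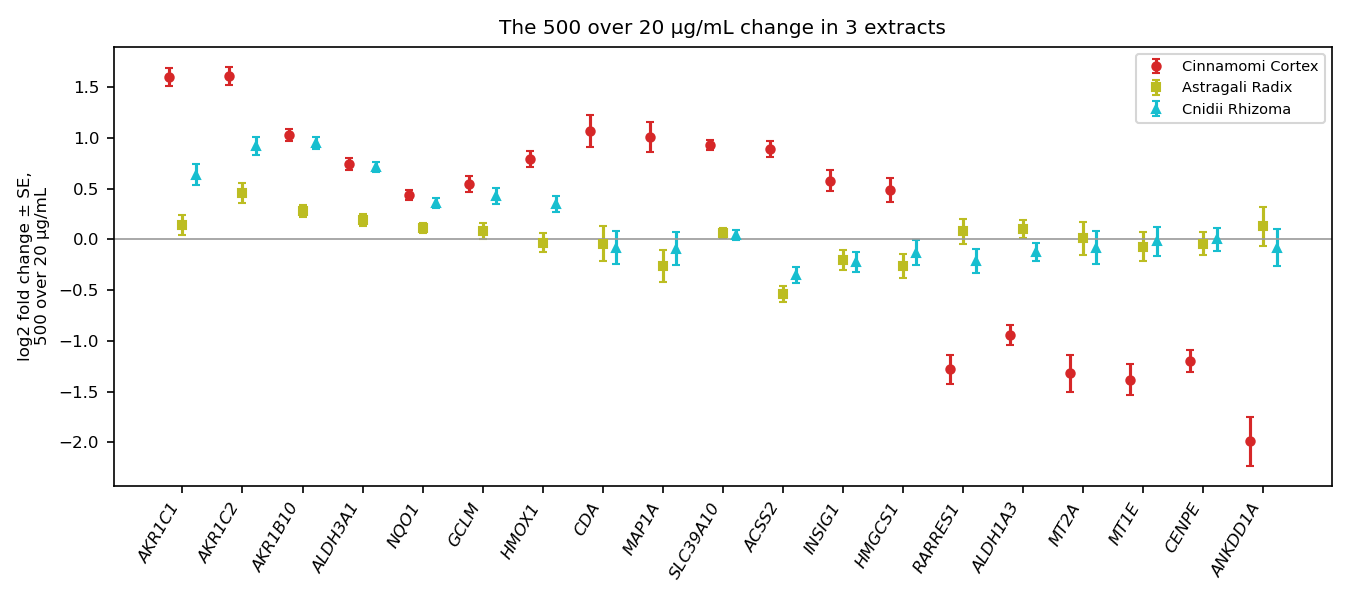
Log2 fold change at 500 against 20 µg/mL (vertical axis) with whiskers of 1 SE for 19 genes (horizontal axis) with Cinnamomi Cortex, Astragali Radix and Cnidii Rhizoma, 3 libraries per dose and extract. AKR1B10 stands at 1.03 with Cinnamomi Cortex, 0.28 with Astragali Radix and 0.95 with Cnidii Rhizoma, while SLC39A10 stands at 0.93, 0.06 and 0.04 and CENPE at -1.20, -0.04 and -0.00.

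The same dose contrast in the other single plant drugs shows which changes differed between extracts. With Astragali Radix 12 genes were called between 500 and 20 µg/mL (0.0734%) and with Cnidii Rhizoma 70 (0.428%). The difference of the dose effect itself was tested as an interaction. It was called for 420 genes between Cinnamomi Cortex and Astragali Radix (2.57%), 184 with the more positive change in Cinnamomi Cortex (1.12%) and 236 with the more negative (1.44%), and for 370 genes between Cinnamomi Cortex and Cnidii Rhizoma (2.26%), 152 (0.929%) and 218 (1.33%). Without Cnidii Rhizoma replicate 2 at 500 µg/mL this count was 238. Both interactions use the same Cinnamomi Cortex libraries, which also chose the genes described here, so the counts among chosen genes are a description.

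All 3 marker genes differed from both extracts. AKR1C1 changed by 1.60 with Cinnamomi Cortex, 0.14 with Astragali Radix and 0.64 with Cnidii Rhizoma, and the differences were 1.46 (SE 0.14, adjusted p = 2.6e-10) and 0.96 (SE 0.13, adjusted p = 3.3e-06). CDA changed by 1.07, -0.04 and -0.08 in the same order, with differences of 1.11 (SE 0.23, adjusted p = 0.0019) and 1.15 (SE 0.23, adjusted p = 0.0011). RARRES1 changed by -1.28, 0.08 and -0.21, with differences of -1.37 (SE 0.18, adjusted p = 1.2e-06) and -1.07 (SE 0.19, adjusted p = 0.00018).

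Part of the NRF2 list also rose with Cnidii Rhizoma. Of its 30 members 18 rose with Cnidii Rhizoma, where 0.251% of all genes did, and 1 was called with Astragali Radix, and the change was more positive with Cinnamomi Cortex for 20 members against Astragali Radix and for 8 against Cnidii Rhizoma. AKR1B10 changed by 1.03 with Cinnamomi Cortex and 0.95 with Cnidii Rhizoma, a difference of 0.08 (SE 0.08, adjusted p = 0.75). GCLM had a difference from Cnidii Rhizoma of 0.13 (SE 0.11, adjusted p = 0.72), and TXNRD1 one of -0.07 (SE 0.12, adjusted p = 0.87). AKR1C2 differed from Cnidii Rhizoma by 0.68 (SE 0.13, adjusted p = 0.00086) and FTH1 by 0.54 (SE 0.09, adjusted p = 0.00023).

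Most cholesterol genes and the metallothioneins MT2A and MT1E differed from both extracts. In the cholesterol list the change was more positive with Cinnamomi Cortex for 22 of 25 members against Astragali Radix and 20 against Cnidii Rhizoma, and 0 members were called with either of those extracts alone. ACSS2 changed by 0.89 with Cinnamomi Cortex, -0.54 with Astragali Radix and -0.35 with Cnidii Rhizoma, and differed by 1.43 (SE 0.11, adjusted p = 3.3e-12) and 1.24 (SE 0.11, adjusted p = 2.7e-10). SLC39A10 differed by 0.87 (SE 0.07, adjusted p = 3.3e-12) and 0.89 (SE 0.07, adjusted p = 2.3e-12). MT2A differed by -1.33 (SE 0.24, adjusted p = 0.00023) and -1.23 (SE 0.24, adjusted p = 0.00076), and MT1E by -1.32 (SE 0.20, adjusted p = 1.4e-05) and -1.37 (SE 0.20, adjusted p = 7.7e-06). CENPE, which changed by -0.04 with Astragali Radix and -0.00 with Cnidii Rhizoma, differed by -1.16 (SE 0.16, adjusted p = 1.4e-06) and -1.20 (SE 0.16, adjusted p = 1.1e-06). In the list of long cilium, centromere and coiled-coil genes the change was more negative with Cinnamomi Cortex for 9 of 25 members against each extract, and in the retinoid list for 7 and 5 of 20.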

How the data were processed

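RNA-seq was made from HT29 cells with a strand-marking kit as paired reads of 100 bases, per the labels' protocols. The deposited table holds RSEM expected counts, estimated counts per Ensembl gene that the authors did not normalize further. The submitters' processing notes name FastQC 0.11.9, RSEM 1.3.3, STAR 2.7.3a, Trim Galore 0.6.5 and the genome GRCh38 (hg38), without their role. Neither the annotation release nor the strand setting is given in the sources used here. All values were rounded, since 8.8% of them were not whole. Of 273 columns of values, 213 that the labels do not tie to these 60 samples were not used. Totals of the 60 libraries ran from 20459371 to 36253798. A gene name table gave the symbols of 56558 identifiers and GENCODE release 29 those of 497 more, and coordinates are from that release on GRCh38.

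The comparisons were tested on 57 libraries in 19 groups of 3 with the quasi-likelihood test of edgeR 4.0.16 under R 4.3.3, with TMM factors of 0.938 to 1.043, a filterByExpr minimum count of 10, which kept 16357 genes, and 38 residual degrees of freedom. Paeoniae Radix, with 1 library per dose, was left out. Within each comparison, adjustment over all genes followed Benjamini and Hochberg. SE is that of the log2 fold change, and levels are TMM-scaled CPM. The dose effects of extracts were compared as interactions in the same fit. The scripts were tested on simulated counts. The chi-square per gene between replicates was 2.52 to 29.16, above that of counting alone, so no pair was counted as 1 library.

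Members and the 44 gene lists were chosen with earlier results of these data known. Named genes were the 3 markers given, the 12 risen and 12 fallen genes with the largest change (mean log2 CPM of at least 1, no overlap between the doses, an ordinary symbol), up to 4 called members of a list with at least 3 and up to 2 of other lists, a panel of 34 genes and the 5 leading genes of each interaction and direction. Alternatives were RLE factors, DESeq2 1.42.0, no filter, a minimum count of 50, fits to 9 or 6 libraries, replicate blocks, a term for the side of the first principal component, and leaving out each library. Leaving out replicate number 2 at both doses was chosen after the data were seen. A few named genes are not reported here.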

Additional observations from a re-analysis of the deposited data

Results flagged for a closer look

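The 3 marker genes had a different change from 20 to 500 µg/mL with Cinnamomi Cortex than with the other extracts tested, by the interaction test of edgeR. AKR1C1 differed by 1.46 on the log2 scale from Astragali Radix (adjusted p = 2.6e-10) and by 0.96 from Cnidii Rhizoma (adjusted p = 3.3e-06). CDA differed by 1.11 (adjusted p = 0.0019) and 1.15 (adjusted p = 0.0011) in the same order. RARRES1 differed by -1.37 (adjusted p = 1.2e-06) and -1.07 (adjusted p = 0.00018). The doses of Cinnamomi Cortex did not overlap for these genes, so the direction in all 3 pairs of equal replicate number was fixed. The interactions use the Cinnamomi Cortex libraries that also chose the genes described here, so these values are a description.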

How the results depend on the processing

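None of the 146 named genes called changed sign under any alternative. The balance of calls did turn. Between 500 and 20 µg/mL, 754 were higher and 917 lower, against 930 and 849 with DESeq2 and 1441 and 1406 with a replicate block in 57 libraries. Between 500 and 100 µg/mL, 497 higher and 466 lower became 474 and 545 at a minimum count of 50 and 107 and 115 in 9 libraries. The 1671 genes called between 500 and 20 µg/mL were 552 in a fit to the 9 Cinnamomi Cortex libraries and 443 in one to the 6 compared, where fewer libraries set the spread, and 998 without replicate number 2 at both doses. Leaving out 1 library gave 974 (without 20 µg/mL replicate 3) to 1861. The 79 genes changed at least 2-fold were 32 with DESeq2, 142 with no filter, 32 at a minimum count of 50, 38 in 9 libraries and 37 in 6. For 500 against 100 µg/mL 963 became 222 in 9 libraries, and 474 (without 100 µg/mL replicate 2) to 1255 with 1 library left out, with 641 without 500 µg/mL replicate 1 and 596 without replicate 2. For 100 against 20 µg/mL 1 became 6 with DESeq2, 259 with no filter, 0 in 9 libraries, 4 with the principal component term, and 0 to 31 (without 100 µg/mL replicate 1) with 1 library left out. The interaction with Cnidii Rhizoma, at 370, was 238 (without Cnidii Rhizoma 500 µg/mL replicate 2) to 365 with 1 library left out. The cause was not tested.

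Equal replicate numbers correlated at 0.191, -0.003 and 0.189 in their deviations between the doses, and unequal numbers at -0.257 to 0.114. What libraries of equal number share is not stated in the labels, and the main fit had no replicate block. With a replicate block in the 57 libraries the counts were 2847 for 500 against 20, 1885 for 500 against 100 and 85 for 100 against 20 µg/mL, and 960 and 887 for the interactions with Astragali Radix and Cnidii Rhizoma. A replicate block in the 6 libraries called 1407 genes between 500 and 20 µg/mL and lost 20 of the 146 named genes. The block in 57 libraries lost 0, RLE factors 0, DESeq2 8, the principal component term 9, no filter 17, replicate number 2 left out 40, 9 libraries 53 and 6 libraries 64. Counts at low levels limit genes under 1 CPM, such as MT1F, CCL20 and IFITM1.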

Other observations

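ENSG00000256861, a protein-coding identifier with no symbol in the tables used (chr12:122207779-122266423, GRCh38), had 18, 38 and 46 counts at 500 µg/mL and 0 in every library at 20 µg/mL, which is at least 11.7-fold higher with a floor of 3 counts per library (adjusted p = 0.047, edgeR's quasi-likelihood test). At 100 µg/mL it had 80, 30 and 0 counts and in the vehicle 0, 0 and 0. The call was lost in 9 of the alternatives, among them each library left out.

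The fold changes within pairs of equal replicate number ran against each other over GC content. The median log2 ratio in the pair numbered 2 was 0.07 in the lowest of 5 GC classes of near-equal size and -0.11 in the highest, while in the pair numbered 3 it was -0.06 and 0.08. Over the fitted values the median was -0.01 in both of these classes.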
